A study of Mus musculus with 6 samples.

Results

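The genes described here make ribosomes: 55 factors that fold, modify, cut and assemble ribosomal RNA and its proteins in the nucleolus and on the way to the cytoplasm. They were chosen by name, as a list of ribosome biogenesis and nucleolar factors, with earlier results of these data known. Of the 55, 50 had at least 1 probe set naming that gene alone, out of 12393 genes measured. Dkc1, Nob1, Wdr3 and Gnl3l had no probe set in the annotation used, and the probe set of Mrto4 carries several symbols, so these 5 were not analysed here. Transcript levels were measured on 1 Affymetrix array per sample in erythroblasts, cells that still have a nucleus and mature into red cells, sorted from mouse bone marrow on CD71, the transferrin receptor. There were 3 samples from mice carrying a transgene for the RPS19 mutant R62W and 3 from wild type mice, and all 6 samples were of the FVB/N strain. The promoter that drives the transgene, the age of the animals and whether each sample came from 1 animal or a pool are not given in the labels. The p-values therefore measure the spread between these samples only, which may be technical.

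RPS19 is a protein of the small ribosomal subunit, and its gene is often mutated in Diamond-Blackfan anaemia, in which the marrow makes too few red cells. Ribosomal RNA is copied as 1 long precursor, which small nucleolar ribonucleoproteins modify and which then splits into the path to the small (40S) subunit and the path to the large (60S) subunit. RPS19 is needed for a late step in making the 18S RNA of the small subunit. Erythroblasts make many ribosomes early and shut this production down as they mature, so the genes of this machinery are highest in young, dividing cells.

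All values below are on the log2 scale, on which 1 unit is a doubling, and each difference is mutant minus wild type. Rps19 itself read 12.06, 12.10 and 12.09 on the mutant arrays, against 12.13, 12.10 and 12.06 on the wild type arrays, but its probe set may or may not read the transgene and so does not check the labels. The 13 measured erythroid markers of 16 listed averaged 9.04 to 9.79 on mutant and 9.58 to 9.65 on wild type arrays. Tfrc, the gene of CD71, read 11.45, 11.99 and 11.96 on the mutant arrays, against 12.15, 12.14 and 12.13 on the wild type arrays. The arrays differed in other cell markers. The 9 measured B lineage markers of 10 listed averaged 6.16, 8.07 and 6.996 on mutant replicates 1, 2 and 3, against 6.09 to 6.15 on the wild type arrays. The 10 neutrophil markers averaged 11.09, 9.84 and 9.31 on the same mutant arrays, against 10.30 to 10.41 on the wild type arrays. The averages of megakaryocyte and of monocyte markers lay apart between the groups, but most of the single markers overlapped. The 7 measured megakaryocyte markers of 8 listed averaged 5.60 to 6.02 on mutant and 5.27 to 5.32 on wild type arrays. Of these only Vwf lay apart, by 1.48 (adjusted p = 0.036, limma). The 10 monocyte and macrophage markers averaged 6.36 to 6.94 on mutant and 6.96 to 7.10 on wild type arrays. Of these, 3 were lower on every mutant array than on any wild type array. In bulk samples fewer cells of a type and less RNA per cell cannot be told apart. RNA ends also differed, since actin read 1.58 to 1.88 higher at its 3' than at its 5' end on mutant and 1.26 to 1.37 higher on wild type arrays. Added poly-A control RNAs averaged 11.58 to 13.47 on mutant and 8.74 to 8.77 on wild type arrays, and the part of these offsets in the gene values was not tested.

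The ribosome biogenesis genes differed little between the group means, and 1 mutant array held lower values than the others for most of them. In the fit over all genes, 0 of the 50 members passed an adjusted p of 0.05 (limma, Benjamini-Hochberg over all genes), where 0.331% of all genes did. At an unadjusted p under 0.05, 8 members (16%) were lower and 1 (2%) was higher in the mutant, beside 8.3% and 9.11% of all genes. The members were brighter, with a median wild type level of 8.25 beside 5.75 over all genes. With probe sets under a mean log2 of 5 left out, 18% of members passed in either direction, beside 22.3% of the genes kept. The median difference of the members was -0.074 (quartiles -0.19 and 0.086), beside -0.0044 over all genes. For 38 members (76%) the 95% confidence interval of the difference lay inside 0.5 either way, beside 57.6% of all genes. Only Nop58 differed by more than 0.5 in either direction.

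**Figure D1:**
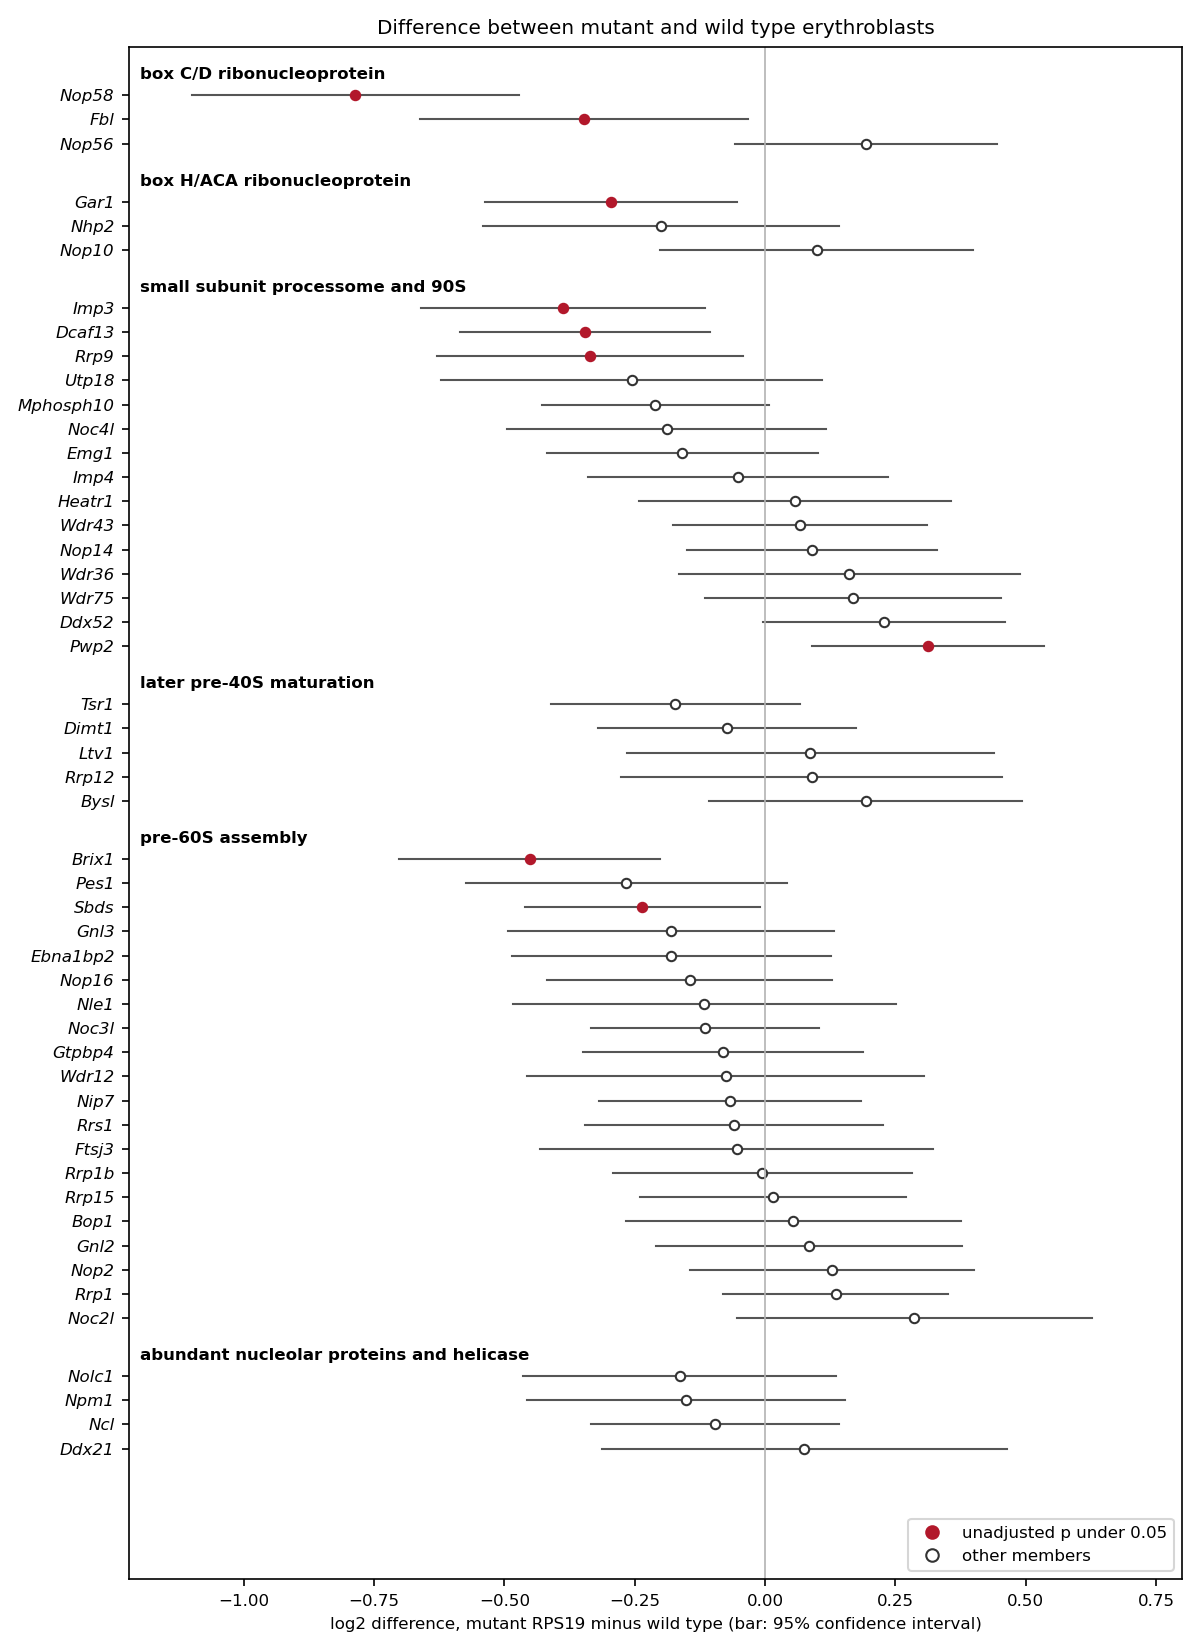
Difference in level between mutant RPS19 and wild type erythroblasts for the 50 measured members, by role (x axis, log2 difference, mutant minus wild type; points are estimates, bars 95% confidence intervals from limma, 3 arrays a group). Filled points mark the 9 members with an unadjusted p under 0.05, of which 8 lie left of 0 and Pwp2 lies right of it; Nop58 at -0.79 lies farthest from 0.

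The groups did not overlap for 15 members. All mutant arrays lay below all wild type arrays for 10 of them (20%), beside 12.7% of all genes. These were Nop58, Gar1, Dcaf13, Imp3, Mphosph10, Rrp9, Tsr1, Brix1, Ebna1bp2 and Sbds. All mutant arrays lay above all wild type arrays for 5 (10%), beside 12% of all genes, namely Nop56, Pwp2, Ddx52, Rrp1 and Noc2l. These counts use the probe set of the gene fit. On the other probe sets of Nop56 (-0.27) and Rrp1 (-0.39) all mutant arrays lay below, and on that of Ddx52 (0.017) the groups overlapped. Among the lower genes, the other probe sets of Mphosph10 and Ebna1bp2 overlapped, and that of Brix1 again had all mutant arrays below.

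The RefSeq promoter windows of 4 of these genes are shown. The genes were chosen as the lowest-p member of the box C/D, the pre-60S and the box H/ACA group. The last is Pwp2, the 1 member higher at an unadjusted p under 0.05 in the gene fit. Each window is the 250 bases before the annotated start, 5′ to 3′ on the strand of the gene, in build GRCm38.p6. Capitals mark the letters CCGGAAG or their reverse complement CTTCCGG, 1 form of the sequence that ETS factors are known to bind. The windows lie at chr1:59684756-59685005 on the plus strand (Nop58), and on the minus strand at chr15:10485938-10486187 (Brix1), chr3:129831397-129831646 (Gar1) and chr10:78185150-78185399 (Pwp2).
Nop58: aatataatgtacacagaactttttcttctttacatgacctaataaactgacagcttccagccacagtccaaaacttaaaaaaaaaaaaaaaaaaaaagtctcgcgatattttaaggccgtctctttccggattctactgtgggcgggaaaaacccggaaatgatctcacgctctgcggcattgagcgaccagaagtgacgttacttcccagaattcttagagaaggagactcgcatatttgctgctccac
Brix1: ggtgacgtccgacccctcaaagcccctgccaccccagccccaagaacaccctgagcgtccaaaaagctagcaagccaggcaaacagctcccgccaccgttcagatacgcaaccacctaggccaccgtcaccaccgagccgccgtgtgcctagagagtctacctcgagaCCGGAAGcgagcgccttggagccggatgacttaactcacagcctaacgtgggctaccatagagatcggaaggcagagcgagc
Gar1: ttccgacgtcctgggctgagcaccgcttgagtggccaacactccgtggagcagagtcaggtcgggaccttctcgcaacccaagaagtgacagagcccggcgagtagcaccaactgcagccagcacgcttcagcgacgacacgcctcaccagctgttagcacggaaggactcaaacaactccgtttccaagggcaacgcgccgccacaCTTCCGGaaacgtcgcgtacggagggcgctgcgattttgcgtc
Pwp2: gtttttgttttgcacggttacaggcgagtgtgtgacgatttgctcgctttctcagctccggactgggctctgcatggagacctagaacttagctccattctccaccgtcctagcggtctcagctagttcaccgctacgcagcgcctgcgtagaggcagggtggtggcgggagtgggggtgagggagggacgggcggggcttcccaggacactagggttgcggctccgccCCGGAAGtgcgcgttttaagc
Of the 50 members, 41 had such a window, and 12 of these (29.3%) held CCGGAAG on either strand, beside 12.9% of the 9887 measured genes with a window and 7.83% of all 27025 genes with a window. The E-box CACGTG, a sequence that Myc is known to bind and which reads the same on both strands, was in 3 member windows (7.32%), beside 9.19% of measured genes and 6.86% of all genes. The members with the ETS letters differed by -0.45 to 0.31 (median -0.16), and those without by -0.79 to 0.29 (median -0.073). The window of Nop58 held neither exact sequence, though it holds CCGGAA and its reverse complement TTCCGG, which are shorter than the ETS letters. The windows of Brix1 and Gar1, lower in the mutant, and of Pwp2, higher, each held the ETS letters. A match describes the letters only.

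Box C/D ribonucleoproteins guide methylation of ribosomal RNA, and their core held the member with the largest difference. Nop58, a core protein that holds the guide RNA, read 8.56, 8.30 and 8.79 on the mutant arrays, against 9.35, 9.31 and 9.36 on the wild type arrays. Every mutant value lay below every wild type value, by far more than the wild type arrays differed among themselves. Nop58 averaged 8.55 ± 0.25 in mutant and 9.34 ± 0.024 in wild type samples (SD, n = 3 each), a difference of -0.79 ± 0.13 (SE) or 0.58-fold. Its adjusted p was 0.062 over all genes and 0.035 over all probe sets (limma), so Nop58 fell past the threshold over probe sets and missed it over genes. The probe set call was lost without mutant replicate 2 (adjusted p = 0.072, limma) or any wild type replicate (0.171 to 0.186) and with the replicate block (0.076), and kept without mutant replicate 1 or 3 (0.018 and 0.017). The difference itself stayed at -0.80 to -0.78 without any wild type replicate, where 36 to 48 of all probe sets were called.

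Fibrillarin, encoded by Fbl, is the enzyme that adds the methyl group. Fbl was read by a pair of probe sets, and the one used in the gene fit read 11.01, 10.56 and 10.74 on the mutant arrays, against 11.17, 11.19 and 11.01 on the wild type arrays. These groups overlapped, with mutant replicate 1 among the wild type values, and the difference was -0.35 ± 0.13 (SE, adjusted p = 0.25, limma). The dimmer probe set of Fbl read 10.03, 9.45 and 9.72 on the mutant arrays, against 10.58, 10.47 and 10.47 on the wild type arrays. On it Fbl fell by 0.78 ± 0.15 (SE, adjusted p = 0.0499 over all probe sets, limma), close to the threshold. The call was kept without mutant replicate 1 (adjusted p = 0.0051, limma) and lost without mutant replicate 2 or 3 (0.099 and 0.066) or any wild type replicate (0.189 to 0.228). With all 6 arrays it was lost with repeated quantile normalisation (0.054), median centring (0.054) and the replicate block (0.078). Other variance priors, array weights and leaving out dim probe sets kept it (0.0031 to 0.048).

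Nop56, the partner of Nop58 in the same particle, read 10.14, 10.12 and 10.39 on the mutant arrays, against 10.07, 10.03 and 9.97 on the wild type arrays. Its mutant values were the higher ones, by 0.19 ± 0.11 (SE, adjusted p = 0.41, limma). Its dimmer probe set had the opposite sign, at -0.27 ± 0.12 (adjusted p = 0.27 over probe sets, limma). To compare their changes and not their levels, the value of Nop56 was taken from that of Nop58. Within each array, Nop58 minus Nop56 read -1.58, -1.82 and -1.60 on the mutant arrays and -0.72, -0.72 and -0.62 on the wild type arrays. The gap was -0.98, and with the dimmer Nop56 probe set it was -0.52. This pair, and the values by array of Nop56, were chosen after they were seen, so no test is given.

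Box H/ACA ribonucleoproteins turn chosen uridines of ribosomal RNA into pseudouridine. Of their proteins, Gar1 read 9.43, 9.17 and 9.40 on the mutant arrays, against 9.64, 9.59 and 9.66 on the wild type arrays. The groups were apart, with a difference of -0.30 ± 0.10 (SE, adjusted p = 0.21, limma). Nhp2 differed by -0.20 ± 0.15 and Nop10 by 0.099 ± 0.13 (adjusted p = 0.54 and 0.74, limma). With array weights the differences were -0.35 for Gar1, -0.38 for Nhp2 and -0.039 for Nop10 (adjusted p = 0.048, 0.071 and 0.85, limma). Without mutant replicate 2 they were -0.22, -0.049 and 0.23.

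The small subunit processome is the large particle in which U3 RNA helps to fold and cut the precursor of 18S RNA. Of its 15 measured members 8 had a lower and 7 a higher mutant mean, with a median of -0.051. Dcaf13, a processome protein, read 8.74, 8.49 and 8.69 on the mutant arrays, against 9.02, 8.997 and 8.94 on the wild type arrays, and differed by -0.35 ± 0.10 (SE, adjusted p = 0.15, limma). Imp3, which binds U3 RNA, read 9.003, 8.74 and 8.72 on the mutant arrays, against 9.24, 9.30 and 9.09 on the wild type arrays, and differed by -0.39 ± 0.12 (SE, adjusted p = 0.16, limma). In both, the mutant arrays lay below the wild type arrays.

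Rrp9, a protein specific to the U3 particle, read 7.31, 7.14 and 7.53 on the mutant arrays, against 7.59, 7.77 and 7.62 on the wild type arrays, with mutant replicate 3 near the wild type values. Mphosph10, which forms a complex with Imp3 and Imp4, read 7.87, 7.84 and 8.02 on the mutant arrays, against 8.15, 8.11 and 8.10 on the wild type arrays. Their differences were -0.34 ± 0.13 for Rrp9 and -0.21 ± 0.093 for Mphosph10 (SE). Imp4, the third protein of that complex, differed by -0.051 ± 0.12.

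On the other side, Pwp2, a scaffold protein of the processome, read 7.64, 7.50 and 7.71 on the mutant arrays, against 7.31, 7.29 and 7.30 on the wild type arrays. In the gene fit it was the 1 member higher at an unadjusted p under 0.05, by 0.31 ± 0.095 (SE, adjusted p = 0.16, limma). Ddx52, an RNA helicase, read 7.30, 7.13 and 7.15 on the mutant arrays, against 7.02, 7.01 and 6.87 on the wild type arrays. Utp18, known to act beside Pwp2 in yeast, differed by -0.26 ± 0.16 and Wdr36, of the same subcomplex, by 0.16 ± 0.14. The other processome members (Nop14, Heatr1, Emg1, Noc4l, Wdr43 and Wdr75) differed by -0.19 to 0.17.

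Later factors carry the pre-40S particle to its last cut, the stretch of the path where RPS19 is needed. None of the 5 measured members passed an unadjusted p of 0.05, and their differences ran from -0.17 to 0.19. Tsr1, which covers the pre-40S particle, differed by -0.17 ± 0.10, and Dimt1, which methylates 18S RNA near its 3' end, by -0.073 ± 0.11. Ltv1, a pre-40S factor, differed by 0.087 ± 0.15, Rrp12, an export factor, by 0.089 ± 0.16 and Bysl by 0.19 ± 0.13. All 5 confidence intervals lay inside 0.5 either way.

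The pre-60S group was the largest, and 14 of its 20 measured members had a lower mutant mean (median -0.071). Brix1, an early large subunit factor, read 9.24, 8.94 and 9.13 on the mutant arrays, against 9.58, 9.57 and 9.51 on the wild type arrays. The groups were apart, with a difference of -0.45 ± 0.11 (SE, adjusted p = 0.10, limma), and the other probe set of Brix1 differed by -0.49 ± 0.21. Sbds, the gene of Shwachman-Diamond syndrome, whose protein helps to release the factor eIF6 from the new large subunit, read 8.01, 7.94 and 8.04 on the mutant arrays, against 8.34, 8.21 and 8.14 on the wild type arrays. Its difference was -0.24 ± 0.10 (SE, adjusted p = 0.27, limma).

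Pes1, Bop1 and Wdr12 encode the 3 proteins of a complex needed to process the RNA of the large subunit. Pes1 read 8.62, 8.17 and 8.36 on the mutant arrays, against 8.71, 8.68 and 8.56 on the wild type arrays, a difference of -0.27 ± 0.13 (SE, adjusted p = 0.35, limma) with overlapping groups. Bop1 differed by 0.054 ± 0.14 and Wdr12 by -0.075 ± 0.16, both within 1 SE of 0. With array weights the differences were -0.40 for Pes1, -0.10 for Bop1 and -0.27 for Wdr12 (adjusted p = 0.044, 0.66 and 0.20, limma). Without mutant replicate 2 they were -0.16, 0.16 and 0.11. Noc2l was the highest of the group at 0.29 ± 0.15, with 7.68, 7.78 and 8.19 on mutant replicates 1, 2 and 3, against 7.51 to 7.64 in wild type. The GTPase genes Gnl2, Gnl3 (nucleostemin) and Gtpbp4 differed by 0.084, -0.18 and -0.080, the RNA methyltransferase genes Nop2 and Ftsj3 by 0.13 and -0.054, and Ebna1bp2 by -0.18. The other members of the group (Nop16, Nle1, Noc3l, Nip7, Rrs1, Rrp15, Rrp1 and Rrp1b) differed by -0.14 to 0.14 in the gene fit. The dimmer probe sets of Rrp1b differed by 0.31 and 0.38, and those of Rrp1 and Nip7 by -0.39 and -0.31.

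None of the 4 abundant nucleolar proteins and helicases passed an unadjusted p of 0.05 in the gene fit. Npm1, nucleophosmin, read 12.10, 11.68 and 11.95 on the mutant arrays, against 11.96, 12.07 and 12.16 on the wild type arrays, and the groups overlapped. Its dimmer probe set differed by -0.58 ± 0.12 (SE, adjusted p = 0.055 over probe sets, limma), with 11.37, 10.98 and 11.22 on the mutant arrays, against 11.77, 11.79 and 11.75 on the wild type arrays. Ncl, nucleolin, read 11.53, 11.39 and 11.65 on the mutant arrays, against 11.66, 11.60 and 11.61 on the wild type arrays. Nolc1, which chaperones small nucleolar particles, differed by -0.16 ± 0.13 and the helicase gene Ddx21 by 0.075 ± 0.17.

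Probe sets of the same gene often disagreed. The 50 members had 85 probe sets, and 28 members had more than 1. For 12 of these the probe sets differed in sign, although in 0 members did opposite probe sets both pass an unadjusted p of 0.05. Over probe sets, 2 of the 85 passed an adjusted p of 0.05 (limma, Benjamini-Hochberg over all 22626 probe sets), where 2.33% of all probe sets did, and these were Nop58 and the dimmer probe set of Fbl. At an unadjusted p under 0.05, 17 of the 85 (20%) passed (limma), beside 19.1% of all probe sets. Of these 17, 12 were lower and 5 higher in the mutant. The higher ones were that of Pwp2 and dimmer probe sets of Wdr12, Rrp1b and Ncl. The widest gaps were those of Wdr12 (-0.075 and 0.48), Rrp1 (0.14 and -0.39), Ncl (-0.16 to 0.35) and Heatr1 (0.058 and -0.45). The dimmer probe set of Heatr1 averaged 4.02 in mutant and 4.47 in wild type samples, under a log2 of 5. That of Wdr12 averaged 5.64 and 5.16, and that of Rrp1 7.53 and 7.92. Where on each transcript the probes lie was not analysed here.

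**Figure D2:**
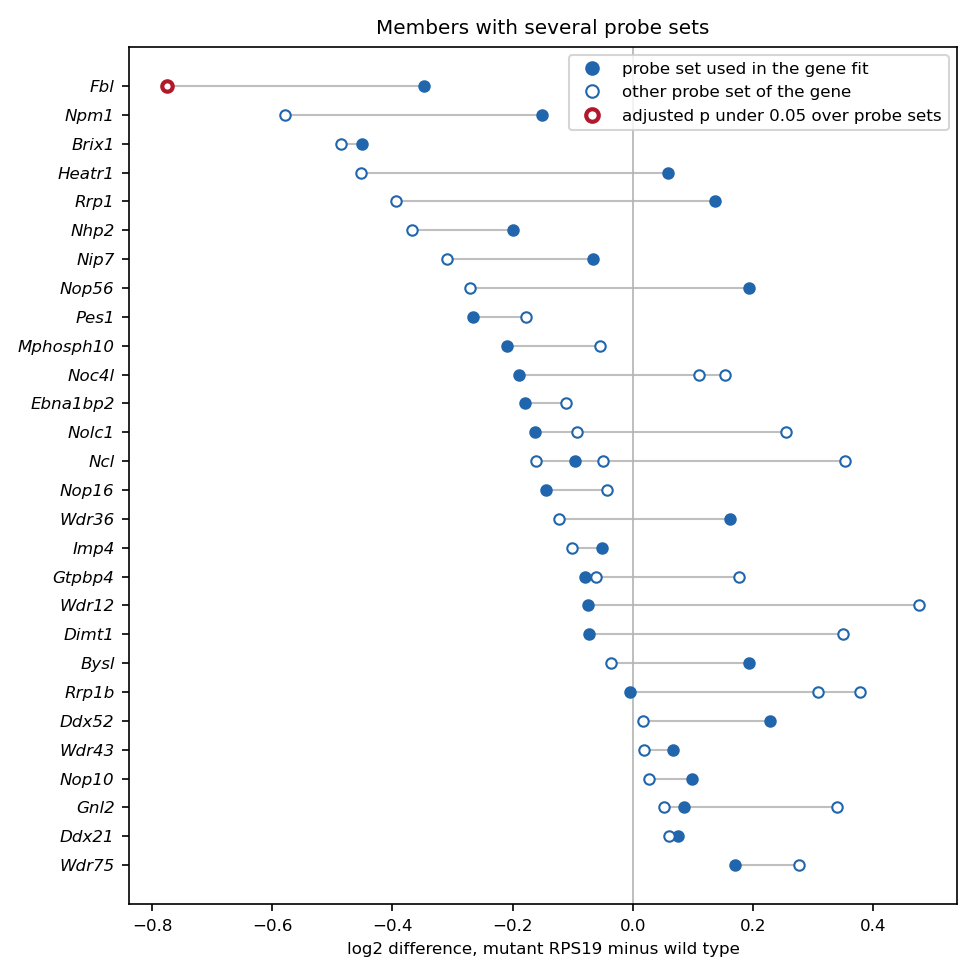
Difference between mutant RPS19 and wild type arrays for every probe set of the 28 members with more than 1 (x axis, log2 difference, mutant minus wild type; filled points are the probe sets of the gene fit, open points the others, lines join the probe sets of a gene). The open point of Fbl at -0.78, ringed in red, passed an adjusted p of 0.05, while the filled point of Fbl stands at -0.35, and 12 genes have points on both sides of 0.

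The clearest pattern of the group lay between the mutant arrays. Among the mutant arrays, replicate 2 was the lowest for 45 of the 50 members (90%), beside 30.3% of all genes, and it was the highest for 0 members, beside 27.4% of all genes. The exceptions were Imp3, lowest on replicate 3, and Emg1, Dimt1, Gnl3 and Noc2l, lowest on replicate 1. Against the wild type mean of each gene, the members had a median of 0.026 on mutant replicate 1, -0.24 on replicate 2 and 0.058 on replicate 3, while all genes had -0.033, -0.014 and 0.019. On mutant replicate 2, 41 members (82%) lay below every wild type value, beside 38.4% of all genes. On mutant replicates 1 and 3, 17 members (34%) did on each, beside 41.3% and 33.3% of all genes. This is a count over genes of 1 list on 1 array, and no test is given. The members were brighter at the median (8.25 beside 5.75 in wild type), so the shares do not compare genes of like level.

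**Figure D3:**
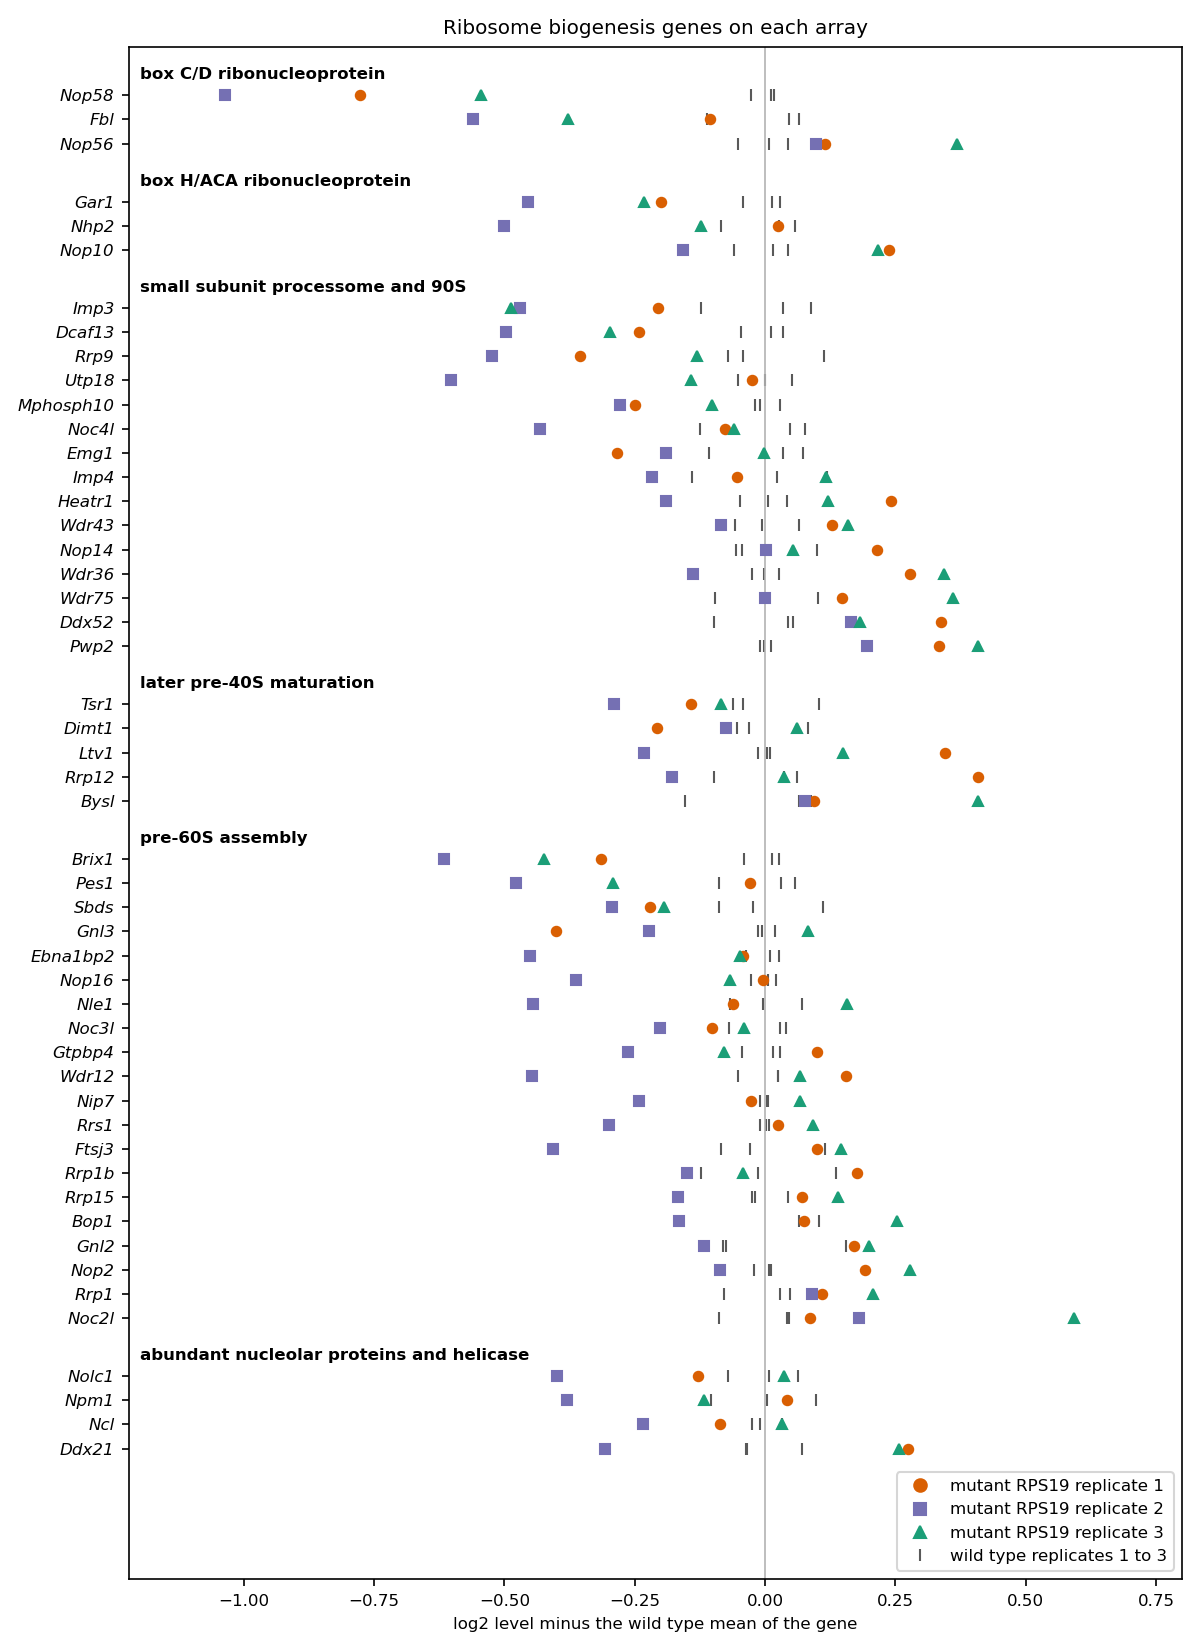
Level of each of the 50 members on each array, as the log2 level minus the wild type mean of that gene (x axis). Coloured symbols are the 3 mutant RPS19 arrays and grey ticks the 3 wild type arrays, grouped by role; the squares of mutant replicate 2 are the leftmost mutant symbol for 45 of 50 genes.

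The median on mutant replicate 2 was below 0 in every role. It was -0.56 in the box C/D group, -0.45 in the box H/ACA group, -0.19 in the processome group, -0.18 in the later pre-40S group, -0.25 in the pre-60S group and -0.34 in the abundant nucleolar group. The box C/D and box H/ACA groups hold 3 measured genes each, so each of their medians is the value of 1 gene. The box C/D median was also below 0 on mutant replicate 1 (-0.11) and replicate 3 (-0.38). Nop56 of that group, however, lay above its wild type mean on every mutant array. The box H/ACA median was below 0 on replicate 3 (-0.12). In the other groups the medians on replicates 1 and 3 lay between -0.025 and 0.094. Replicate 2 was lowest for 44 of 50 members when quantile normalisation was repeated without controls, for 46 after median centring, for 39 when the probe sets of each gene were averaged and for 71 of the 85 member probe sets. It was also the mutant array with the highest B lineage markers (8.07). Its erythroid markers averaged 9.73, above the wild type arrays (9.58 to 9.65), but went both ways singly. Alas2 read 10.88 on it, against 10.05 to 10.27 in wild type, and Rhag 9.92, against 10.23 to 10.40. The part of these cells in the shift was not tested. Mutant replicates varied more than wild type replicates for 48 of 50 members (96%), beside 77.7% of all genes, with Rrp1 and Sbds as the exceptions. Here too the shares do not compare genes of like level.

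**Figure D4:**
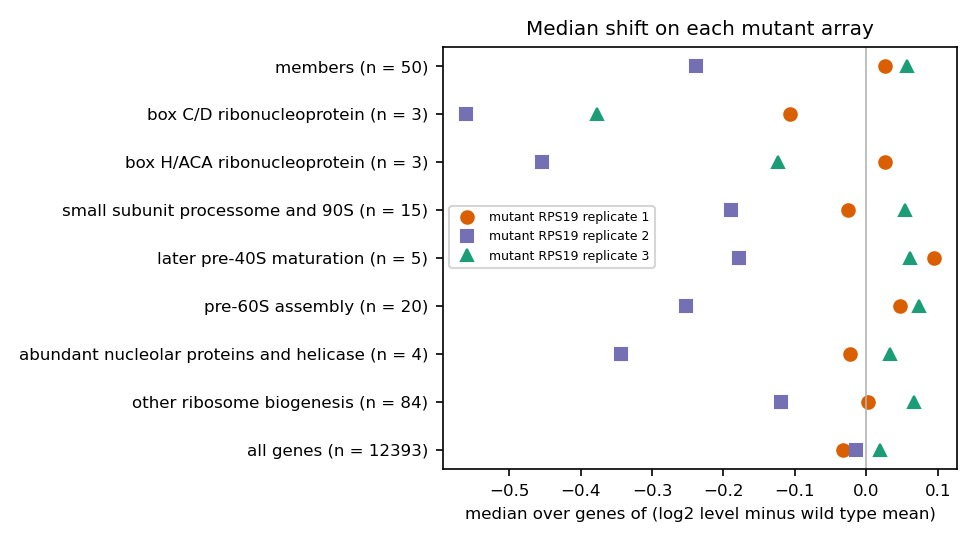
Median over genes of the log2 level minus the wild type mean (x axis) on each of the 3 mutant RPS19 arrays, for the members, for each role, for 84 other ribosome biogenesis genes and for all genes. The squares of mutant replicate 2 lie at -0.24 for the members, -0.12 for the other ribosome biogenesis genes and -0.014 for all genes.

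The comparison of groups depends on which mutant array is in it. Without mutant replicate 2 the median of the members was 0.026, and 0 passed the adjusted p of 0.05 (limma), where 0.242% of all genes did. At an unadjusted p under 0.05, 8 members (16%) passed in that fit, beside 14.98% of all genes. Without mutant replicate 1, which had the highest neutrophil and the lowest erythroid markers, Nop58 (-0.79), Brix1 (-0.52), Imp3 (-0.48) and Fbl (-0.47) passed it, 4 of 50 members (8%), where 9.54% of all genes did. Without mutant replicate 3 Nop58 alone passed (-0.91), where 1.61% of all genes did. With weights for the quality of each array, 8 members (16%) passed, where 10.4% of all genes did, and all 8 were lower in the mutant.

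Of other genes of the pathway, listed with earlier results of these data known, 84 of 105 were measured. Their median difference was 0.014. At an unadjusted p under 0.05, 11 (13.1%) were lower and 8 (9.52%) higher, beside 8.3% and 9.11% of all genes. Of the 84, 1 passed the adjusted p of 0.05, where 0.331% of all genes did. This was Pop4, a subunit of the RNA-cutting enzymes RNase P and RNase MRP, which read 7.91, 7.50 and 7.50 on the mutant arrays, against 6.27, 6.16 and 6.06 on the wild type arrays, and rose by 1.47 ± 0.14 (SE, adjusted p = 0.016, limma). Leaving out any wild type replicate left 0 calls in this list. The next lowest p-values were those of Rpf1, a large subunit factor (-0.50 ± 0.10), Tbl3, of the processome (-0.64 ± 0.13), and Exosc7, of the RNA exosome (-0.48 ± 0.11). On this list too, replicate 2 was the lowest mutant array for 58 genes (69%) and its median was -0.12, against 0.003 on replicate 1 and 0.067 on replicate 3.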

How the data were processed

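The 6 arrays were analysed from the deposited log2 values, 1 per probe set. The submitters' processing notes name GCOS, Affymetrix Expression Console and RMA, a method that corrects background, quantile-normalises and summarises probes. No tool version was recorded in them, nor which arrays were normalised as 1 set. Of 22690 probe sets, 64 controls were left out of the tests. The platform annotation gave 1 symbol for 20380 of the others, and 20351 of these matched a GRCm38.p6 gene table, which changed 0 symbols.

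Each of 12393 genes was represented by its brightest probe set (highest 6-array mean). The groups were compared in limma 3.58.1 under R 4.3.3 (lmFit, eBayes, two-sided, no covariates), over genes and separately over probe sets, with Benjamini-Hochberg adjustment. The fits were tested on simulated data, with 50 changed genes at each size of log2 difference. Of these, 22% were recovered at 0.5, 64% at 1, 72% at -1 and 96% at 2, with 6 false calls. Most genes changed by 0.5 were therefore missed there. Values are means with SD of 3 arrays, or differences with the SE of the fit. The number of arrays limits the precision.

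The members and gene lists were chosen with earlier results of these data known. Values by array are given for called members, the 12 lowest p-values, and some fixed genes. Marker averages are means of log2 values. Alternatives covered variance prior, array weights, scaling, a filter at a mean log2 of 5, replicate block, probe set choice, threshold and leaving out each array. The alternatives for the order of the mutant arrays were added after seeing the data. Promoter sequences are RefSeq's.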

Additional observations from a re-analysis of the deposited data

Results flagged for a closer look

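The array carries 3 control probe sets for 18S ribosomal RNA, the RNA of the small subunit, which no comparison above uses. They averaged 9.31, 8.77 and 9.14 on the mutant arrays, against 7.87, 7.87 and 8.02 on the wild type arrays. The difference was 1.15 (exact two-sided permutation p = 0.1, the smallest that 3 arrays against 3 can give), and the mutant arrays were higher in 3 of 3. Hybridisation controls, which contain no mouse RNA and are added after labelling, were higher on the same arrays by 1.11 (10.47 ± 0.22 in mutant and 9.36 ± 0.07 in wild type samples, SD, n = 3 each, exact permutation p = 0.1). The part of that offset in the 18S values was not tested.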

How the results depend on the processing

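None of the 50 members was called over genes, but array weights gave 8, an adjusted p under 0.10 gave 1, and leaving out 1 array gave 0 to 4. Over probe sets, 2 member calls became 13 with array weights, 4 at an adjusted p under 0.10, 1 with repeated quantile normalisation and 1 with median centring, and 0 to 10 when 1 array was left out. The 13 calls (15.3% of 85) stood beside 11.8% of all probe sets and the 10 calls, without mutant replicate 1 (11.8%), beside 11.2%. For the 84 other ribosome biogenesis genes, 1 call became 14 with array weights, 5 at an adjusted p under 0.10 and 0 to 8 when 1 array was left out. With array weights 10.4% of all genes were called, and without mutant replicate 1, which gave the 8 calls, 9.54%. Same-numbered mutant and wild type arrays had deviations correlated at 0.022 to 0.082, and differently numbered ones at -0.10 to 0.036. The labels do not say whether replicate numbers mark pairs, and this was not tested. With the replicate block, which leaves fewer degrees of freedom, 0 member genes and 0 member probe sets were called. The median of the members ran from -0.14 to 0.026 when 1 array was left out, and it changed sign without mutant replicate 2. Over all genes, 41 calls became 1292 with array weights, 69 with an intensity trend, 99 without dim probe sets, 62 with repeated quantile normalisation, 7 with the block, 1182 and 199 without mutant replicates 1 and 3, and 0 without any 1 of the wild type arrays (limma), where 4 to 7 members (8% to 14%) passed an unadjusted p of 0.05, beside 10.1% to 11.4% of all genes. Over all probe sets, 528 calls became 112 with the block.

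The sign of 29 members held under every alternative and that of 21 did not. When the probe sets of each gene were averaged the difference was -0.039 for Nop56, 0.20 for Wdr12, 0.011 for Ncl, -0.13 for Rrp1, 0.23 for Rrp1b, -0.20 for Heatr1, 0.14 for Dimt1, 0.012 for Gtpbp4 and 0.024 for Noc4l. With array weights it was -0.039 for Nop10, -0.0023 for Nop14, -0.10 for Bop1, -0.080 for Ltv1, -0.093 for Rrp12, -0.065 for Rrp15, -0.076 for Heatr1 and -0.089 for Ddx21, and with repeated quantile normalisation -0.020 for Rrp15. Leaving out 1 array gave -0.14 to 0.031 for Imp4, -0.19 to 0.11 for Wdr12, -0.045 to 0.16 for Bop1, -0.042 to 0.25 for Ltv1, -0.096 to 0.067 for Rrp1b, -0.071 to 0.22 for Rrp12, -0.048 to 0.11 for Rrp15, -0.035 to 0.18 for Heatr1, -0.17 to 0.011 for Gtpbp4, -0.13 to 0.021 for Nip7, -0.15 to 0.12 for Ftsj3, -0.025 to 0.27 for Ddx21, -0.14 to 0.059 for Rrs1 and -0.25 to 0.048 for Nle1. The cause was not tested.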
